A study of Homo sapiens with 6 samples.

Results

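The genes described here are 40 enzymes and carriers of central carbon metabolism, taken from a list of names. That list was chosen with earlier results of these data known. They are 2 glucose carriers, 10 enzymes of upper glycolysis, 7 of lower glycolysis, 4 enzymes and carriers of lactate, 6 enzymes of the pentose phosphate pathway, 3 subunits of pyruvate dehydrogenase and 8 enzymes of or beside the citrate cycle. All 40 were matched to an Ensembl identifier among the 60658 listed, and all 40 were among the 17436 measured genes, those with at least 1 FPKM in at least 1 library. FPKM are fragments normalised to the length of the transcript and the size of the library, so levels of different genes in a library can be set side by side.

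RNA was sequenced from 6 human prostate cancer lines with 1 library each. C4-2B is a castration-resistant line, and DU145 is a line of separate origin. TaxR came from C4-2B and DTXR from DU145, and both were kept in 5 nM docetaxel. CabR was derived from TaxR and CTXR from DTXR, and both were kept in 5 nM cabazitaxel. Docetaxel and cabazitaxel are taxanes, which stabilise microtubules. The cells were untreated before harvest per the labels, which call the TaxR sample old without saying why, and no source used here tells if a subline is a single clone. The design asks how resistant cells differ from their parents, and the labels do not single out metabolism.

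Glycolysis splits glucose into pyruvate in the cytosol, with hexokinase and phosphofructokinase as its main control points, and many tumours turn much of that pyruvate into lactate and export it. The pentose phosphate pathway branches off at glucose 6-phosphate and supplies NADPH and ribose for nucleotides. Pyruvate dehydrogenase passes pyruvate into the mitochondrial citrate cycle, and normal prostate epithelium is known for secreting citrate instead of oxidising it. Transcription of glycolytic genes is raised by hypoxia-inducible factor, which binds DNA at a core written ACGTG or GCGTG.

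Each line has 1 library, so ratios between lines have no replicate error and are given without p-values. Here a gene counts as higher or lower from a log2 ratio of (FPKM + 1) of 1 or -1 onward, called the size rule, and adding 1 makes changes of low genes look smaller. Values along a lineage are given in the order parent, docetaxel-resistant subline, cabazitaxel-resistant subline. The median log2 ratio over all measured genes lay between -0.02 and 0.00 in the comparisons described here. Steps in the low FPKM values put the sequencing depth of the other libraries at 1.09 to 1.54 times that of C4-2B, an estimate resting on 60 of 736 low genes in CTXR to 188 of 991 in TaxR. Mitochondrially encoded genes held 17.9% to 27.9% of all FPKM in the C4-2B lineage, with C4-2B lowest, and 35.3% to 40.7% in the DU145 lineage. The 8 markers of the C4-2B side summed to 2361 to 5150.1 FPKM in the C4-2B lineage and to 6.89 to 12.7 in the DU145 lineage. The 8 markers of the DU145 side summed to 0.808, 26.4 and 3.27 FPKM along the C4-2B lineage, and to 2225 to 2440.2 in the DU145 lineage. All 8 were higher in TaxR than in C4-2B, at a median of 1.46% of their DU145 level. S100A6, ANXA1 and DKK1 were listed at 0 in C4-2B, and no DU145-side marker was at 0 in TaxR.

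Promoter stretches of 4 genes are shown because these genes, the first enzyme of the pathway, a step that makes ATP, the enzyme that makes lactate and the lactate exporter, carry much of what follows. They are RefSeq sequences of GRCh38.p14, plus strand, 5′ to 3′, taken from the 250 bases before a RefSeq start site and holding no exon base of the same gene in GENCODE 29. For all 4 genes that start site lies downstream of the gene's first annotated base. Capitals mark ACGTG and its reverse complement CACGT, and CACGTG holds both, overlapping.
HK2, chr2:74834946-74835056: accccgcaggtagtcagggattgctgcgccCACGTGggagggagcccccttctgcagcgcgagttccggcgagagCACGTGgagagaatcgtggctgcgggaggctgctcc
PGK1, chrX:78104016-78104099: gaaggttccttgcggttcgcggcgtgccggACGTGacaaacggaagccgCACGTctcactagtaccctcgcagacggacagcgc
LDHA, chr11:18394348-18394387: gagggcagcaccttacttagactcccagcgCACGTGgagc
SLC16A3, chr17:82228944-82229021: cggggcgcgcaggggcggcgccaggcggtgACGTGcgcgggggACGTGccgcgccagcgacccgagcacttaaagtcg
RefSeq windows from 250 bases before to 50 after a start were found for 37 of the 40 genes, several of which have more than 1 start. ACGTG on either strand was in 17 of 48 windows (35.4%) of the glucose, glycolysis and lactate genes, in 4 of 18 (22.2%) of the other members, and in 21.4% of all 34943 such windows. GCGTG on either strand was in 39.6%, 55.6% and 36.5% of the same windows. Each stretch shown comes from the window of its gene with the most ACGTG on either strand. The other windows of LDHA and SLC16A3 held 0, the other window of HK2 held 2, and the window of SLC2A1, not shown, held 0. These are counts of letters, and which start sites the cells used was not measured.

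In the C4-2B lineage, 22 of the 23 genes from glucose uptake to lactate export had a log2 ratio below 0 in TaxR and 21 in CabR. Of all 17436 measured genes, 8761 were below 0 in TaxR and 8754 in CabR. Some of the 23 passed the size rule, while no pentose phosphate, pyruvate dehydrogenase or citrate cycle member did. By that rule TaxR had 7 of the 23 lower and CabR 12, with median log2 ratios of -0.90 and -1.02, and 1 was higher in each. Of the 17 others none passed the size rule in either subline, and their medians were 0.04 and 0.07. The background over all measured genes was 5.64% lower and 2.52% higher in TaxR, and 6.2% lower and 2.67% higher in CabR. The summed FPKM of the 23 genes made up 2.64%, 1.45% and 1.34% of FPKM outside the mitochondrial genome along the C4-2B lineage. For the 17 others the shares were 0.292%, 0.296% and 0.308%. The 2 comparisons share the single C4-2B library. After scaling to equal total FPKM, 13 members were lower in TaxR and the median of the 17 turned to -0.12, the median of all genes moving by -0.12. Treating the DU145-side markers of TaxR as an admixed DU145-lineage share is an assumption that was not tested. With such a share removed at the markers' median of 1.46% (range 0.362% to 5.67% over the 8 markers), 8 members were lower in TaxR.

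**Figure D1:**
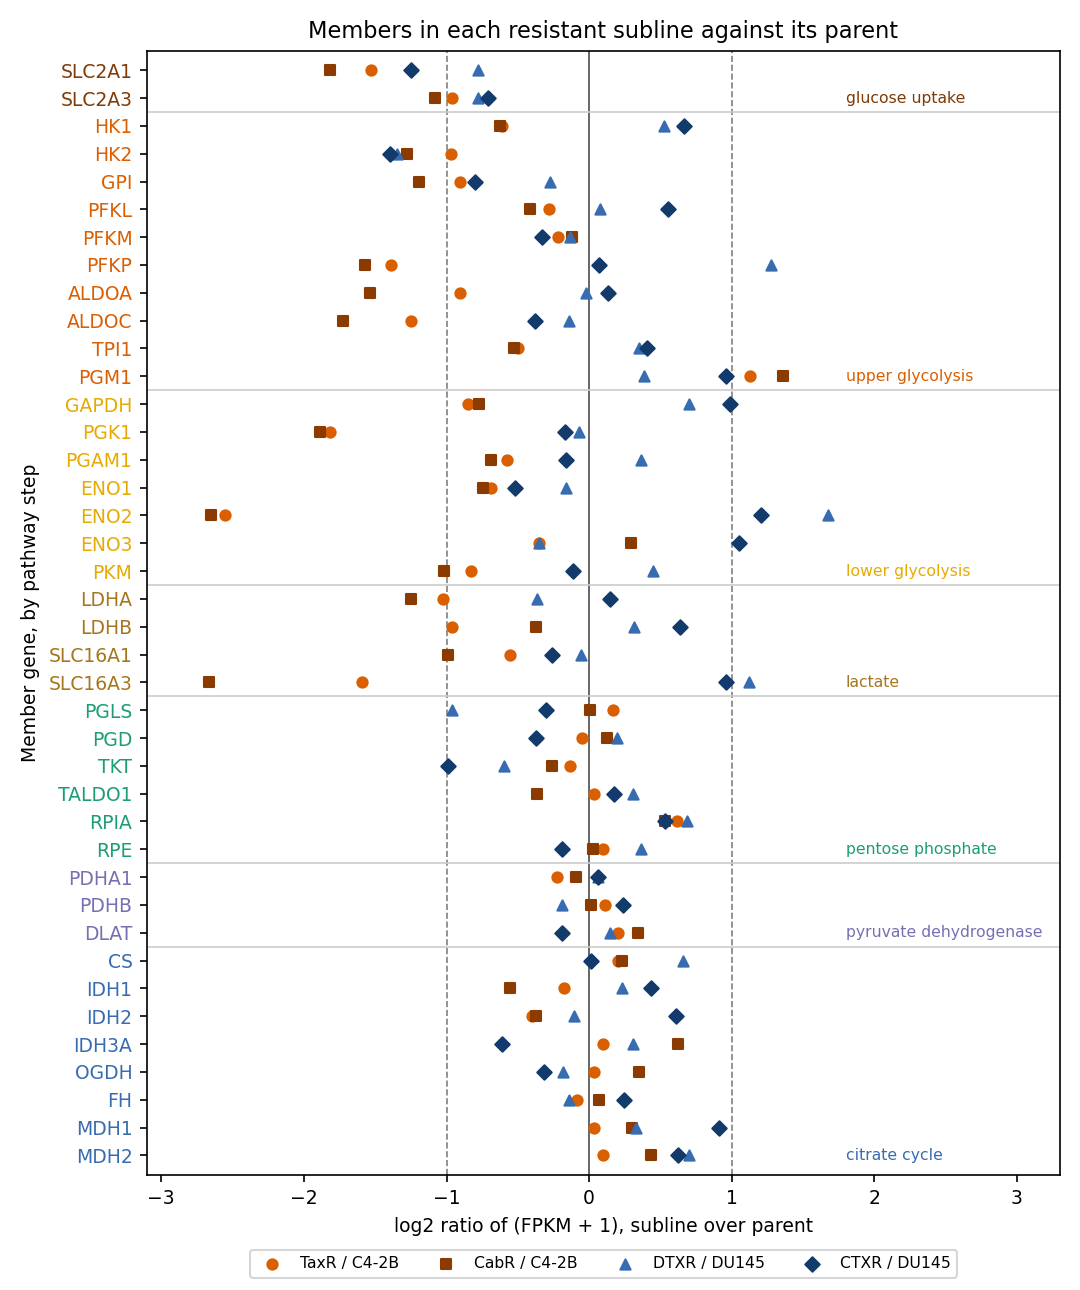
Log2 ratio of (FPKM + 1) of each of the 40 members in the 4 resistant sublines against their parents, ordered by pathway step; dashed lines mark the size rule of 1 in either direction. ENO2 and SLC16A3 lie far to the left in TaxR and CabR (down to -2.67) and to the right in DTXR and CTXR, while the pentose phosphate, pyruvate dehydrogenase and citrate cycle genes stay between the dashed lines.

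Glucose enters through the carriers SLC2A1 and SLC2A3. SLC2A1 (ENSG00000117394, chromosome 1, 42925375 to 42959176, minus strand, GRCh38), the widespread basal glucose carrier, had 113, 38.6 and 31.4 FPKM along the C4-2B lineage and 83.7, 48.4 and 34.6 along the DU145 lineage. Each subline was below its parent, with log2 ratios of -1.53, -1.82, -0.78 and -1.25 in TaxR, CabR, DTXR and CTXR. SLC2A3, a high-affinity carrier best known from neurons, had 3.94, 1.54 and 1.34 FPKM along the C4-2B lineage and 45.2, 25.9 and 27.3 along the DU145 lineage. It was called lower in CabR alone (-1.08) and was at -0.96 in TaxR, which moved to -1.38 once that assumed share was removed, and to -1.08 with the same total FPKM. It made up 3.4% to 4.1% of the summed FPKM of the 2 carriers in the C4-2B lineage and 34.8% to 44.1% in the DU145 lineage.

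Hexokinase traps glucose in the cell as glucose 6-phosphate. HK2 (ENSG00000159399, chromosome 2, 74833981 to 74893359, plus strand), the inducible isozyme of many tumours, had 44.4, 22.3 and 17.7 FPKM along the C4-2B lineage and 14.4, 5.05 and 4.84 along the DU145 lineage. All 4 sublines thus stood below their parents, at -0.97 in TaxR, just short of the size rule, and -1.28, -1.35 and -1.40 in CabR, DTXR and CTXR. HK1, the constitutive isozyme, went apart between the lineages, with 67.0, 43.6 and 43.2 FPKM against 16.7, 24.5 and 27.04, and no ratio passed the size rule. The HK1 share of the 2 hexokinases was 60.1%, 66.2% and 70.9% along the C4-2B lineage and 53.7%, 82.9% and 84.8% along the DU145 lineage, above the parent in every subline.

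The next enzymes rearrange the sugar and commit it to glycolysis. GPI, glucose 6-phosphate isomerase, had 827, 442 and 361 FPKM along the C4-2B lineage and was called lower in CabR (-1.19). Along the DU145 lineage it had 163, 134 and 93.3 FPKM. Of the phosphofructokinases, which catalyse the committed step, the platelet type PFKP had 133, 50.2 and 44.1 FPKM along the C4-2B lineage (log2 ratios -1.39 and -1.57). It ran the other way in DTXR, with 91.3, 222 and 95.7 FPKM along the DU145 lineage (1.27 and 0.07). The liver type PFKL and the muscle type PFKM passed the size rule in no subline, with log2 ratios of -0.42 to 0.55 and -0.33 to -0.12. PFKP accordingly held 45.7%, 27.4% and 25.2% of phosphofructokinase FPKM along the C4-2B lineage and 54.8%, 75.2% and 53.5% along the DU145 lineage.

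Aldolase and triose phosphate isomerase make the 3-carbon sugars. ALDOA, the main aldolase, had 2760.5, 1477 and 949 FPKM along the C4-2B lineage and was called lower in CabR (-1.54). The DU145 lineage had 739, 728 and 812 FPKM, with ratios of -0.02 and 0.14. ALDOC, the brain aldolase, had 245, 103 and 73.3 FPKM along the C4-2B lineage against 3.04, 2.65 and 2.10 along the other. It was lower in TaxR (-1.25) and CabR (-1.73). TPI1, triose phosphate isomerase, had 1124, 796 and 782 FPKM and then 237, 302 and 314, with no call. PGM1, which links glucose 1-phosphate of glycogen to glycolysis, was the exception among these genes. It had 7.08, 16.7 and 19.8 FPKM along the C4-2B lineage (log2 ratios 1.13 and 1.36) and 10.9, 14.6 and 22.2 along the DU145 lineage (0.39 and 0.96). It was higher than the parent in all 4 sublines, by 2.35-fold and 2.79-fold in FPKM in the first pair. Its exons overlap those of ITGB3BP on the opposite strand over 4.68% of their length, and ITGB3BP stood at 17.2, 18.3 and 20.7 FPKM along the C4-2B lineage.

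Lower glycolysis returns ATP and ends in pyruvate. PGK1 (ENSG00000102144, chromosome X, 77910739 to 78129296, plus strand), phosphoglycerate kinase, had 967, 273 and 260.4 FPKM along the C4-2B lineage. The log2 ratios of -1.82 and -1.89 were among the lowest 1.04% of measured genes in each subline. Along the DU145 lineage it had 92.4, 87.8 and 81.9 FPKM, ratios of -0.07 and -0.17. GAPDH, which makes the NADH of glycolysis and is often used as a reference gene, had 3611, 2006 and 2116 FPKM along the C4-2B lineage (-0.85 and -0.77). It had 867, 1406 and 1720.4 FPKM along the DU145 lineage (0.70 and 0.99). GAPDH thus stood below the parent in 1 lineage and above it in the other, each time short of the size rule, apart from a call of 1.02 in CTXR with median-ratio scaling and of -1.01 in TaxR with the same total.

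Enolase showed the widest contrast between the lineages. ENO2 (ENSG00000111674, chromosome 12, 6913745 to 6923698, plus strand), the neuronal enolase, had 67.3, 10.7 and 9.84 FPKM along the C4-2B lineage, log2 ratios of -2.55 and -2.65. Along the DU145 lineage it had 8.19, 28.3 and 20.2 FPKM, log2 ratios of 1.67 and 1.21. The parent was therefore the highest library of the C4-2B lineage and the lowest of the DU145 lineage. ENO1, the ubiquitous enolase and at least 91.3% of enolase FPKM in every library, had 1606, 998 and 958 FPKM, then 828, 738 and 577, with no call. ENO3, the muscle enolase, had 19.8, 15.3 and 24.5 FPKM, then 16.3, 12.5 and 34.8, and was higher in CTXR (1.05). ENO3 exons overlap those of the abundant PFN1 gene on the opposite strand (2.59% of their length), which had 629, 848 and 1068 FPKM along the DU145 lineage, and the part of this in the ENO3 value was not tested. PGAM1, phosphoglycerate mutase, passed the rule nowhere (-0.69 to 0.36). PKM, pyruvate kinase, had 896, 505 and 442 FPKM along the C4-2B lineage and was lower in CabR (-1.02), a call lost under 3 of 4 rescalings at -0.96 to -0.99. A gene-level value does not separate its M1 and M2 splice forms.

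**Figure D2:**
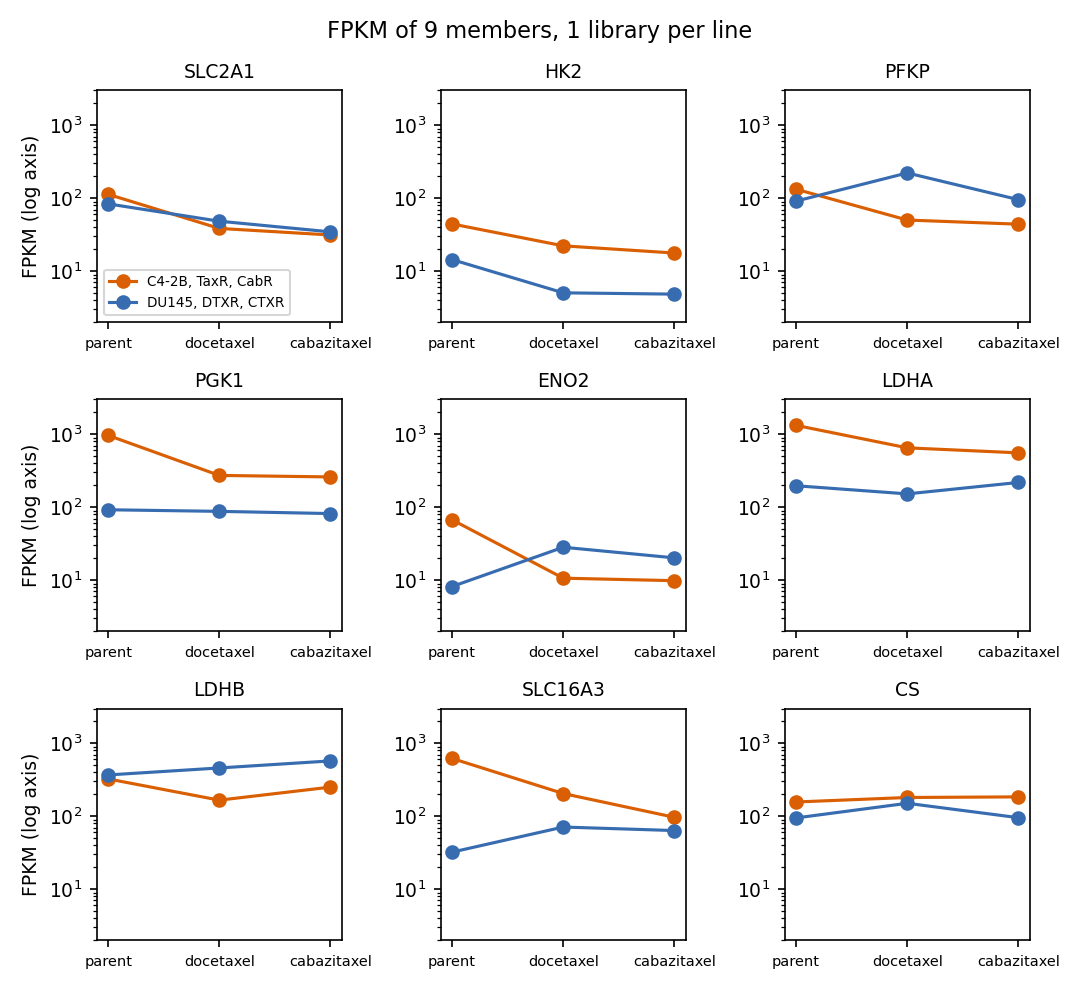
FPKM of 9 members (log axis) in the parent, the docetaxel-resistant and the cabazitaxel-resistant line of each lineage, 1 point per library. In the C4-2B lineage both sublines lie below the parent in all panels but CS, while in the DU145 lineage SLC2A1 and HK2 lie below the parent and ENO2 and SLC16A3 above it.

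Lactate dehydrogenase and the monocarboxylate carriers handle the end product. LDHA (ENSG00000134333, chromosome 11, 18394388 to 18408425, plus strand), the subunit that favours making lactate, had 1326, 652 and 557 FPKM along the C4-2B lineage (-1.02 and -1.25). The TaxR value sits on the size rule and was short of it under 3 of 4 rescalings, at -0.97 to -0.99. Along the DU145 lineage it had 197, 152.5 and 219 FPKM, with no call. LDHB, the subunit that favours using lactate, had 325, 166 and 251 FPKM in the first lineage and 368, 459 and 573 in the second, again with no call. LDHA made up 80.3%, 79.7% and 69.0% of the 2 subunits along the C4-2B lineage, but 34.9%, 24.9% and 27.6% along the DU145 lineage. LDHA thus exceeded LDHB in all 3 C4-2B lineage libraries and was below it in all 3 of the DU145 lineage.

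SLC16A3 (ENSG00000141526, chromosome 17, 82228397 to 82261129, plus strand), the lactate exporter MCT4, had 619.8, 205 and 96.7 FPKM along the C4-2B lineage. These are log2 ratios of -1.59 and -2.67, the CabR value being the lowest of the 40 members. Along the DU145 lineage it had 32.2, 71.1 and 63.7 FPKM, ratios of 1.12 and 0.96, so that all 3 libraries of this lineage were below CabR. Its exons overlap those of CSNK1D on the opposite strand, which lay between 65.8 and 78.5 FPKM in all 6 libraries. SLC16A1, the carrier MCT1 that works in both directions, had 94.7, 64.1 and 47.1 FPKM along the C4-2B lineage and 51.2, 49.2 and 42.5 along the DU145 lineage, with no call (-0.99 in CabR). The SLC16A3 share of the 2 carriers was 86.7%, 76.1% and 67.2% along the C4-2B lineage and 38.6%, 59.1% and 59.9% along the DU145 lineage, so the sublines of the 2 lineages were nearer to each other than the parents were.

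**Figure D3:**
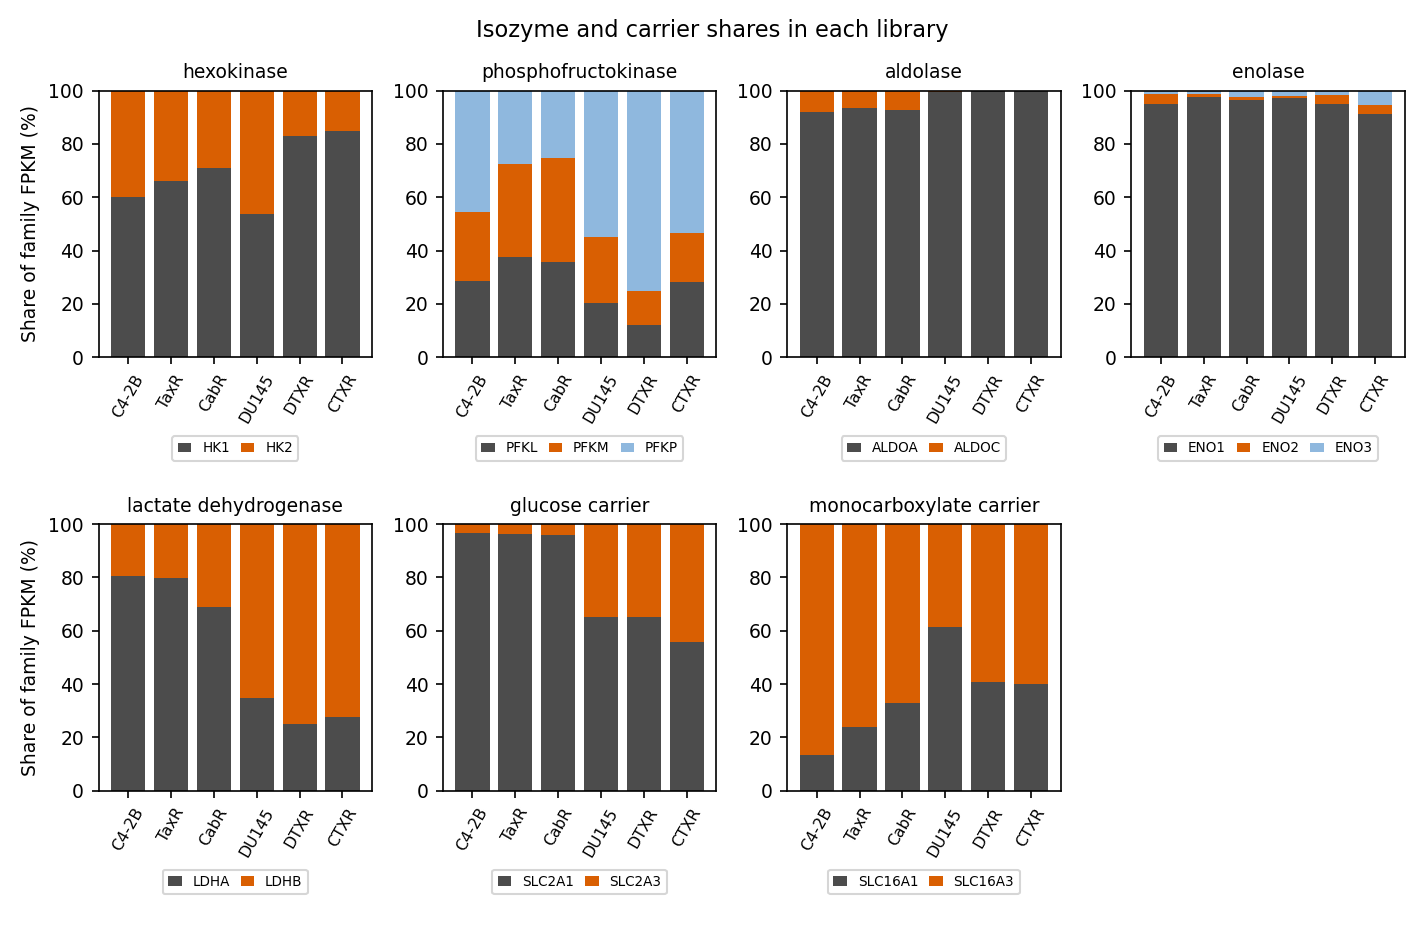
Share of each isozyme or carrier in the summed FPKM of its family, in percent, 1 bar per library, for 7 families. HK1 takes a larger share in every subline than in its parent, LDHB dominates in the DU145 lineage, and the SLC16A3 share is lower in TaxR and CabR than in C4-2B and higher in DTXR and CTXR than in DU145.

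The pentose phosphate members showed no call in any subline on the values as deposited. PGD, which makes NADPH, had 81.8, 79.1 and 89.4 FPKM along the C4-2B lineage, and 41.5, 47.6 and 31.8 along the DU145 lineage. TKT, transketolase, the link back to glycolysis, had 318, 289 and 266 FPKM in the first lineage. Along the DU145 lineage it had 445, 294 and 223, a log2 ratio of -0.99 in CTXR that passed the size rule at -1.01 with the same total and -1.13 with the same total outside mitochondrial genes. PGLS, the lactonase that follows the first oxidation, had 56.4, 28.4 and 45.6 FPKM along the DU145 lineage and was at -0.96 in DTXR, which passed the size rule at -1.03 with the same upper quartile and -1.004 with the same total outside mitochondrial genes. RPIA, ribose 5-phosphate isomerase, was above the parent in each subline by 0.53 to 0.68, from 9.61 to 15.2 and 14.3 FPKM and from 10.6 to 17.6 and 15.7. TALDO1, transaldolase, and RPE, the epimerase, stayed within -0.36 and 0.37.

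No member of pyruvate dehydrogenase or the citrate cycle passed the size rule in a subline either. Some other genes of these steps that are not members did, as described further on. The subunits PDHA1, PDHB and DLAT lay between -0.22 and 0.35 in the 4 sublines, with PDHA1 at 73.1, 62.4 and 68.4 FPKM along the C4-2B lineage. CS, citrate synthase, had 157, 181 and 184 FPKM in that lineage, and 94.8, 150.5 and 95.6 along the DU145 lineage. Of the malate dehydrogenases, cytosolic MDH1 had 120.2, 151 and 226 FPKM along the DU145 lineage (0.33 and 0.91), and mitochondrial MDH2 had 152, 247 and 235 (0.70 and 0.63). IDH3A, a subunit of the NAD-dependent isocitrate dehydrogenase, had 34.7, 37.3 and 54.0 FPKM in the C4-2B lineage and 19.4, 24.3 and 12.4 in the other, 0.62 in CabR and -0.61 in CTXR. The NADP-dependent enzymes IDH1 and IDH2 spanned -0.55 to 0.43 and -0.40 to 0.61. OGDH, of the oxoglutarate dehydrogenase complex, and FH, fumarase, stayed within -0.32 and 0.35.

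In the DU145 lineage the 23 glucose, glycolysis and lactate genes had no common direction. In DTXR, PFKP, ENO2 and SLC16A3 were higher and HK2 was lower, and the median of the 23 was -0.02. In CTXR, ENO2 and ENO3 were higher and SLC2A1 and HK2 lower, with a median of 0.07 (-0.07 with the same total outside mitochondrial genes). The background was 5.37% higher and 5.1% lower for DTXR, and 7.45% higher and 5.47% lower for CTXR, so 3 and 1 members of 40 in DTXR and 2 and 2 in CTXR are shares near the background. The 23 genes held 0.956%, 1.11% and 1.03% of FPKM outside the mitochondrial genome along this lineage, whose comparisons share the single DU145 library.

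**Figure D4:**
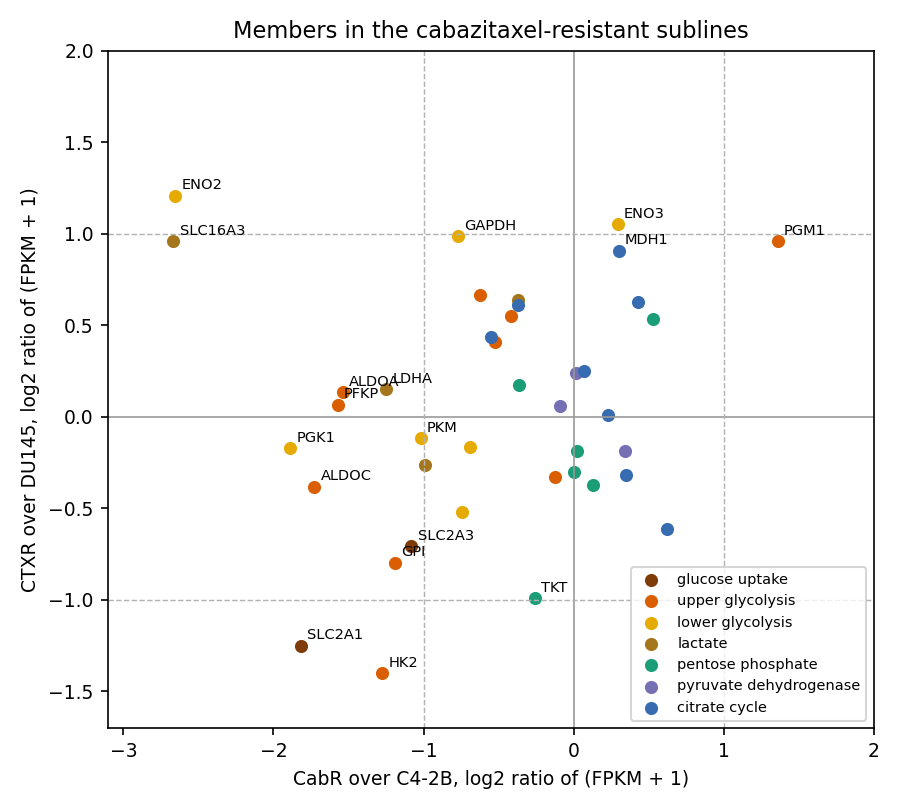
Log2 ratio of (FPKM + 1) of each member in CabR over C4-2B (horizontal) and in CTXR over DU145 (vertical), coloured by pathway step, with dashed lines at the size rule. SLC2A1 and HK2 lie at the lower left, and ENO2 at -2.65 and 1.21 lies at the upper left. Most glycolytic genes are left of 0, with vertical values scattered on both sides of 0 (-1.40 to 1.21).

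The difference between the lineages in the change from parent to resistant sublines was tested with limma. The fit took TaxR and CabR, and DTXR and CTXR, as pairs of samples of their lineage. CabR descends from TaxR and CTXR from DTXR, so these are not independent selections. No member passed an adjusted p of 0.05, and neither did any other gene (0% of 17436). The largest difference among members was at ENO2, whose log2 change from the parent was 4.04 higher in the DU145 lineage (95% interval 2.93 to 5.15, limma with Benjamini-Hochberg adjusted p = 0.342). These values compare changes from the parent and not levels. SLC16A3 followed at 3.17 (1.18 to 5.15, limma adjusted p = 0.405) and PFKP at 2.15 (-0.06 to 4.36, limma adjusted p = 0.536). PGK1, all 4 of whose ratios were below 0, stood at 1.73 (1.09 to 2.37, limma adjusted p = 0.343) and GAPDH at 1.65 (0.79 to 2.51, limma adjusted p = 0.386). At an unadjusted p under 0.05 there were 7 members, against 9.52% of all genes. Without DTXR 442 genes, and without CTXR 344, passed the adjusted threshold for this difference, no member among them (smallest limma adjusted p of a member 0.0652 and 0.0648).

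Resistance in the 2 lineages together was tested with limma with lineage as a term. No member passed an adjusted p of 0.05 for docetaxel or cabazitaxel resistance, or for both stages taken as 1, nor did any measured gene (0%). At an unadjusted p under 0.05 there were 6 and 9 members, against 4.43% and 4.79% of all genes. For both stages as 1 there were 10, against 6.68%. That last fit took each docetaxel-resistant subline and its cabazitaxel-resistant descendant as separate samples, though they are not independent selections. In the cabazitaxel-resistant lines the fitted log2 difference was -1.53 for SLC2A1 (95% interval -2.18 to -0.89, limma adjusted p = 0.864), -1.34 for HK2 (-1.96 to -0.71) and -0.99 for GPI (-1.57 to -0.42), at the same adjusted p. These 3 were below the parent in 4 of 4 sublines, as were 10 of the 40 members and 13.5% of all measured genes. PGM1 stood at 1.16 (0.47 to 1.85, limma adjusted p = 0.864), above the parent in 4 of 4, as were 5 of the 40 members and 11.2% of all measured genes.

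Few members passed the size rule in the step from docetaxel to cabazitaxel resistance. From TaxR to CabR, SLC16A3 was lower (-1.07), and no member was higher, against 1.84% and 1.75% of all measured genes. From DTXR to CTXR, PFKP was lower (-1.21) and ENO3 higher (1.41), against 5.25% and 7.29%. The median of the 40 was -0.08 in the first step and -0.12 in the second.

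The parents themselves differed widely in this pathway. In DU145 against C4-2B, 21 of 40 members were lower and 1 was higher, against 19.5% and 17.3% of measured genes, with a median of -1.04. The lowest ratios were at ALDOC (-5.93), SLC16A3 (-4.22), PGK1 (-3.37) and IDH2, the mitochondrial NADP-dependent isocitrate dehydrogenase (107 and 12.1 FPKM, -3.05). SLC2A3 was the member that was higher (3.22). The pentose phosphate genes had a median of 0.03 here (-0.13 with the same total), where TALDO1 alone was lower (-1.08).

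Of 72 other genes of these pathways 54 were measured, with 5 lower and 0 higher for TaxR, and 7 lower and 0 higher for CabR. For DTXR it was 4 in each direction, and for CTXR 7 higher and 2 lower. Over all measured genes the lower share was 5.64% for TaxR and 6.2% for CabR, and the higher and lower shares were 5.37% and 5.1% for DTXR and 7.45% and 5.47% for CTXR, so the counts for DTXR are near the background. Regulators of glycolytic rate were among those lower in the C4-2B sublines. PFKFB4 and PFKFB3, which make the phosphofructokinase activator fructose 2,6-bisphosphate, had 97.2, 13.7 and 11.2 FPKM and 52.4, 12.1 and 11.2 FPKM along the C4-2B lineage. The log2 ratios were -2.74 and -3.00 for PFKFB4 and -2.03 and -2.13 for PFKFB3. PFKFB2 of the same family ran the other way, short of the size rule, with 9.44, 11.7 and 16.2 FPKM along that lineage (0.29 and 0.72). PDK1, the kinase that switches off pyruvate dehydrogenase, had 49.1, 16.5 and 13.1 FPKM (-1.52 and -1.83). In the DU145 lineage PFKFB4, PFKFB3 and PDK1 passed the size rule in neither subline.

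**Figure D5:**
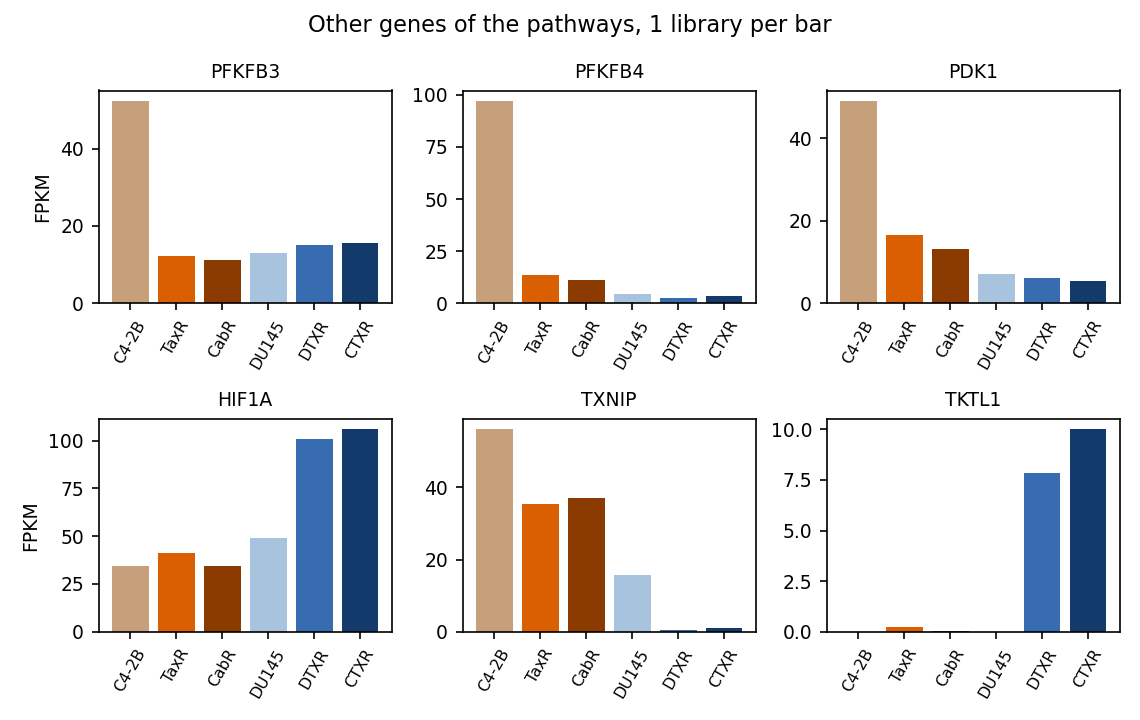
FPKM of 6 other genes of the pathways in each library, 1 bar per library with axes from 0. PFKFB3, PFKFB4 and PDK1 are highest in C4-2B, HIF1A is higher and TXNIP lower in DTXR and CTXR than in DU145, and TKTL1 reaches 7.84 and 10.0 FPKM in DTXR and CTXR.

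Other genes stood apart in the DU145 lineage. HIF1A, the oxygen-regulated subunit of hypoxia-inducible factor, which is controlled largely at the protein level, had 48.9, 101 and 106 FPKM along the DU145 lineage (1.03 and 1.10) and 34.2, 41.3 and 34.3 along the C4-2B lineage. TXNIP, which restrains glucose uptake, had 15.7, 0.599 and 1.06 FPKM along the DU145 lineage (-3.38 and -3.01), and 56.2, 35.4 and 37.0 along the C4-2B lineage. TKTL1, a transketolase-like gene, stood at 7.84 and 10.0 FPKM in DTXR and CTXR and was listed at 0 in their parent. HKDC1, a further hexokinase gene, went from 2.81 FPKM in DU145 to 0.745 and 0.333 (-1.13 and -1.52).

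Some pathway genes passed the size rule in 1 subline of a lineage. PDP1, the phosphatase that switches pyruvate dehydrogenase on, had 8.03, 50.6 and 11.7 FPKM along the DU145 lineage, and PC, pyruvate carboxylase, had 15.0, 4.52 and 19.1. PFKFB2 was higher in DTXR (1.38), and the gluconeogenic FBP1 (1.71) and the ribokinase RBKS (1.12) were higher in CTXR. In CabR, the NADP-dependent malic enzymes ME1 (46.9 FPKM in C4-2B, 14.4 in CabR) and ME3 (1.79 in C4-2B, listed at 0 in CabR) were lower, as was the insulin-responsive glucose carrier SLC2A4 (-1.28), which was lower in DTXR as well (3.20 FPKM in DU145, 0.748 in DTXR, -1.26). The carrier SLC2A12 was lower in TaxR (-1.28).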

How the data were processed

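FPKM per gene from 6 libraries were analysed, each line being 1 group, as the labels name them. The authors deposited FPKM, 1 table per library, per the file headers. Libraries were directional per the labels' protocols. HISAT, StringTie, Cuffnorm and GRCh38 appear in the submitters' processing notes. Not given in the sources used here were versions, the annotation, joint scaling and the strand setting of the counting. FPKM are model-based estimates in which reads of copies and overlapping genes were divided by that software. Annotated processed pseudogenes of 19 members summed to at most 7.62% of the member (RPE), and exons of 25 members overlap another gene's. Absolute depth is unknown, and counting error is therefore not given.

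Values were used as deposited, as log2(FPKM + 1). Symbols came from a gene table and coordinates from GENCODE 29. Genes were called by size, and limma 3.58.1 (R 4.3.3, intensity trend, empirical Bayes, two-sided, Benjamini-Hochberg over 17436 genes, stage and lineage as terms) was fitted to all 6 libraries and tested on simulated data. The fit of the difference between the lineages was added after seeing the data. P-values measure only the spread between these libraries. Every member was named. Other pathway genes were named where they passed the size rule with the same sign in both sublines of a lineage, plus up to 2 per list that passed in 1. The members and lists were chosen with earlier results of these data known. Python 3.11.15 with pandas 2.3.3 was used.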

Additional observations from a re-analysis of the deposited data

How the results depend on the processing

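Counts of members past the size rule were recomputed with other pseudocounts, filters and scalings, with the DU145-lineage share removed from TaxR and, added after seeing the data, with pseudogene FPKM included. No called log2 ratio of a member changed sign under these. With a pseudocount of 5, 0 members were higher in TaxR, 0 were lower in DTXR, and 0 were higher and 1 lower in CTXR. With the same total FPKM, 0 were higher and 13 lower in TaxR. With the same total outside mitochondrial genes, 2 were lower in DTXR, 1 was higher in CTXR and 2 were lower in CTXR against DTXR. With the same upper quartile, 2 were lower in DTXR (HK2 and PGLS under both). The other counts stayed within 1.5 times the reported ones. The cause of these changes was not tested. The same total moved the median of all genes by -0.12 in TaxR and -0.13 in DU145, each against C4-2B, and the same total outside mitochondrial genes by 0.19 in the latter.

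No member passed limma's adjusted threshold in the alternatives fitted, libraries left out included (0 to 0). The difference between the lineages was not fitted without a parent, and both stages as 1 had no alternatives. Where 1 subline is left out, the lone subline is assumed to vary like the others. Limma without a filter on low values was not run, since genes at 0 in every library have no spread. No paired analysis was possible because each line has 1 library and the labels give no replicate numbers, other than limma with lineage as a term. With 1 library per line, no ratio has a replicate error.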

Other observations

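GAPDH, TPI1 and ENO2 lie within one stretch of chromosome 12, from 6533927 to 6923698 (GRCh38, GENCODE 29), a stretch chosen after their values were seen. It holds 18 measured protein-coding genes, whose median log2 ratio against the parent was -0.07 and 0.18 for TaxR and CabR, and 0.34 and 0.38 for DTXR and CTXR. In TaxR the nucleolar gene NOP2, which follows GAPDH, was higher (1.05), and in CabR NOP2 (1.30), P3H3 (1.61) and GPR162 (1.13) were. ENO2 was the only gene of the 18 that was lower in TaxR or CabR. In DTXR, GPR162 (1.08) and ENO2 were higher, and in CTXR GPR162 (1.498), ENO2 and the genes beside TPI1, SPSB2 (1.73) and LRRC23 (1.22). The sources of these differences were not tested.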
